A study of Mus musculus with 19 samples.

Results

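Genes that fold proteins in the endoplasmic reticulum (ER) and genes of the response to amino acid shortage were followed in perigonadal adipose tissue, the fat around the gonads, of C57BL/6 mice that had gained weight on rich food. They were chosen by symbol and known function with no measured value in the rule, but with earlier results of these data known. The group holds 34 of the 24348 genes counted. Of these, 17 are ER chaperones, folding enzymes and targets of the transcription factors ATF6 and XBP1, and 17 are targets of the transcription factor ATF4 with enzymes of serine and one-carbon metabolism and amino acid carriers. All 34 were present in the files and passed the filter on low counts, as did 16015 genes in all.

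RNA was sequenced from 19 libraries of whole tissue in 4 groups. HFD fed (n = 4) came from mice on a high-fat diet labelled HFD 60% and taken at peak weight while fed, and HFD fasted (n = 4) from mice of that model after 24 hours without feeding. Ensure fed (n = 6) and Ensure fasted (n = 5) are the same states in mice whose weight gain came from Ensure, a sweetened nutritional drink. Sample titles call these models ALO and OIO, with "neg" added after fasting, and diet below stands for the whole model. All 4 groups share the weight gain, so no contrast here is with a lean animal. Age and sex are not given in the labels, and neither is whether the libraries come from different mice, so the p-values reflect only how these samples vary, which may be technical. A library is called by its group and its title number.

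The ER is where secreted and membrane proteins fold, and adipocytes secrete large amounts of adiponectin, leptin and matrix proteins. When unfolded proteins build up, the sensors ATF6, IRE1 and PERK are freed from the chaperone BiP; ATF6 and the XBP1 made after IRE1 splicing raise chaperone genes, while PERK phosphorylates the translation factor eIF2. Shortage of amino acids reaches eIF2 through another kinase, GCN2, and in both cases translation of ATF4 rises and ATF4 raises genes that make, import and spare amino acids.

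Promoters of some members hold the letters through which these factors are known to act, and the stretches shown are those of members called below that hold a match. RefSeq start sites on GRCm38.p6, a later build than the mm9 used for the counts, were found for 30 of the 34 members, 14 of ER folding and 16 of amino acid stress, with windows from 250 bases before to 50 after the start. Manf, Hyou1, Atf6 and Slc7a5 were not matched. Both strands were searched for the ER stress element ERSE (CCAAT, any 9 bases, CCACG), its variant ERSE-II (ATTGG, any 1 base, CCACG), the XBP1 element UPRE (TGACGTGG) and the ATF4 composite element CARE (TGATGNAA); no matches overlapped in the members. In the stretches below, from 250 bases before the start up to the start and written 5′ to 3′ on the gene's strand, capitals mark matches to any of these. Hspa5 (chr2:34771840-34772089, plus strand), Pdia6 (chr12:17266339-17266588, plus) and Creld2 (chr15:88819396-88819645, plus) hold ERSE, Herpud1 (chr8:94386179-94386428, plus) holds CARE and then ERSE-II, and Chac1 (chr2:119350992-119351241, plus) and Atf3 (chr1:191183334-191183583, minus) hold CARE. The match in Trib3 lies 14 bases after the start and is shown with 10 bases on each side (chr2:152344029-152344056, minus).
Hspa5: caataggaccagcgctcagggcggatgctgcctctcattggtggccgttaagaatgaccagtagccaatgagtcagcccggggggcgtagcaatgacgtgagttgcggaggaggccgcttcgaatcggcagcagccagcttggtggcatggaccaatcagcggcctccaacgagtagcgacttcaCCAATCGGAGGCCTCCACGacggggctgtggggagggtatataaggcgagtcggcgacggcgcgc
Pdia6: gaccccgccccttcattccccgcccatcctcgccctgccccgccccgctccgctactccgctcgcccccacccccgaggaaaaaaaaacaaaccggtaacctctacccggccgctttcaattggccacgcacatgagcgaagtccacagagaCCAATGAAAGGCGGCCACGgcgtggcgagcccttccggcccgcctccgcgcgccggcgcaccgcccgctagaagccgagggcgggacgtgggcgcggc
Creld2: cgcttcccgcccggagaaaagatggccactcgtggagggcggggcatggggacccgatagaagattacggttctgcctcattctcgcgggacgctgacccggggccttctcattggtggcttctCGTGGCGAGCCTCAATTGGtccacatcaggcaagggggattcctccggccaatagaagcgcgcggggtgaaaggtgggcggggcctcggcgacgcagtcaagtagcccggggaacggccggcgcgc
Herpud1: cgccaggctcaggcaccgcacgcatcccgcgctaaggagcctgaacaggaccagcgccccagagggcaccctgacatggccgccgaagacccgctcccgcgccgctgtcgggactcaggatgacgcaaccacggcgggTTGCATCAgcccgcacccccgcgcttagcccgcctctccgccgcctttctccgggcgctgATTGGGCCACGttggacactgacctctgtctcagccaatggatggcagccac
Chac1: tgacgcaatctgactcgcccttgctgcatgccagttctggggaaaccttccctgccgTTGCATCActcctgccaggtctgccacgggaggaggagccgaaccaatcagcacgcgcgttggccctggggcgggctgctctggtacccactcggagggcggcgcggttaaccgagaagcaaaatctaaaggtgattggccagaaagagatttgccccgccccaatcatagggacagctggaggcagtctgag
Atf3: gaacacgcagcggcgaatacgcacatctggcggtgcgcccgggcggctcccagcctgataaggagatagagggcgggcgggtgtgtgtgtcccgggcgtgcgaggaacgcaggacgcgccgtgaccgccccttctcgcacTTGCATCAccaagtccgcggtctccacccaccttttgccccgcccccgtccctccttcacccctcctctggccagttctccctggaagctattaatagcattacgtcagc
Trib3: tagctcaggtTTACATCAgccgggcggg

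ERSE was present in 7 of the 14 matched ER folding genes and 0 of the 16 amino acid stress genes, against 0.137% of the 27025 genes in the table. ERSE-II was present in Herpud1 and Dnajb11, 2 of 14 and 0 of 16, against 0.0444% of genes. CARE was found in Herpud1 alone of the ER folding genes and in 6 of the 16 amino acid stress genes, against 4.51% of all genes; the 6 are Atf3, Trib3, Asns, Chac1, Fgf21 and Slc7a11, of which Slc7a11 holds 2 copies. UPRE was in none of the 30, against 0.714% of genes. Pdia4 and Psat1, which are also called below, hold none of the 4 motifs, Pdia4 in its 1 window and Psat1 in its 2. These counts describe letters in a window and say nothing of which factor was bound.

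**Figure D1:**
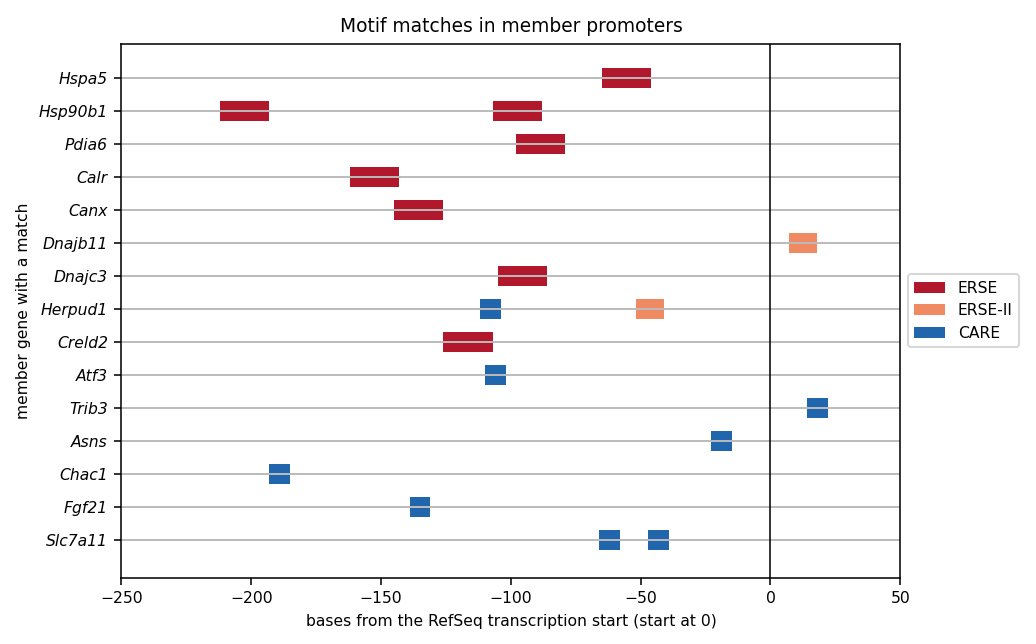
Matches to 3 motifs in the promoters of the 15 members that hold any, with the distance in bases from the RefSeq start on the horizontal axis and each box as long as its motif. ERSE and ERSE-II matches lie in 9 ER folding genes, and CARE matches in 6 amino acid stress genes and Herpud1.

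The libraries held 12.8 to 22.6 M counts in genes, and levels are counts per M (CPM) after TMM scaling. All were rich in adipocyte transcripts: Adipoq, the adiponectin gene, was lowest in Ensure fasted 5, at 1112 CPM. That library stood apart, with 15 epididymis and testis markers summing to 11517 CPM against 1231 in Ensure fasted 2, the next highest, and at most 779 in the other 17 libraries, 10 smooth muscle markers to 8791 and the lowest adipocyte marker sum, 22504. HFD fasted 28 stood apart too, with 13 macrophage markers that are not on the adipocyte marker list summing to 19809 CPM against at most 9008 elsewhere. It also had the highest sum of 12 immediate-early and heat shock genes, 696. The largest terms of its macrophage sum were Mmp12 (7111 CPM) and Gpnmb (4329). Adgre1, Csf1r and Mrc1 of the same list were not highest there, at 173, 476 and 267 CPM against 392, 626 and 416 in Ensure fasted 8. Of the 34 members, 11 had their highest level of all 19 libraries in Ensure fasted 5 and 7 in HFD fasted 28, while these were the highest libraries for 17.1% and 24.5% of all genes tested. In whole tissue, fewer cells of a type and less RNA per cell cannot be told apart.

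Per kb of exon, the ER chaperones were the most abundant members and the stress-induced ATF4 targets the least. In Ensure fed libraries the mean level per kb was 256.8 CPM for Calr (calreticulin), 196 for Hsp90b1 (GRP94) and 189.7 for Hspa5 (BiP), and the 7 highest members all belonged to ER folding. Highest of the amino acid stress genes per kb were Psat1 and Phgdh, enzymes of serine synthesis, at 73.6 and 70.8 CPM. The lowest were Slc7a11, the cystine carrier, at 0.216 and Fgf21, a fasting hormone best known from liver, at 0.446 CPM per kb, so their levels rest on few reads: 2 to 62 per library for Fgf21 and 13 to 688 for Slc7a11. Exon lengths are from GENCODE M21 on GRCm38.

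**Figure D2:**
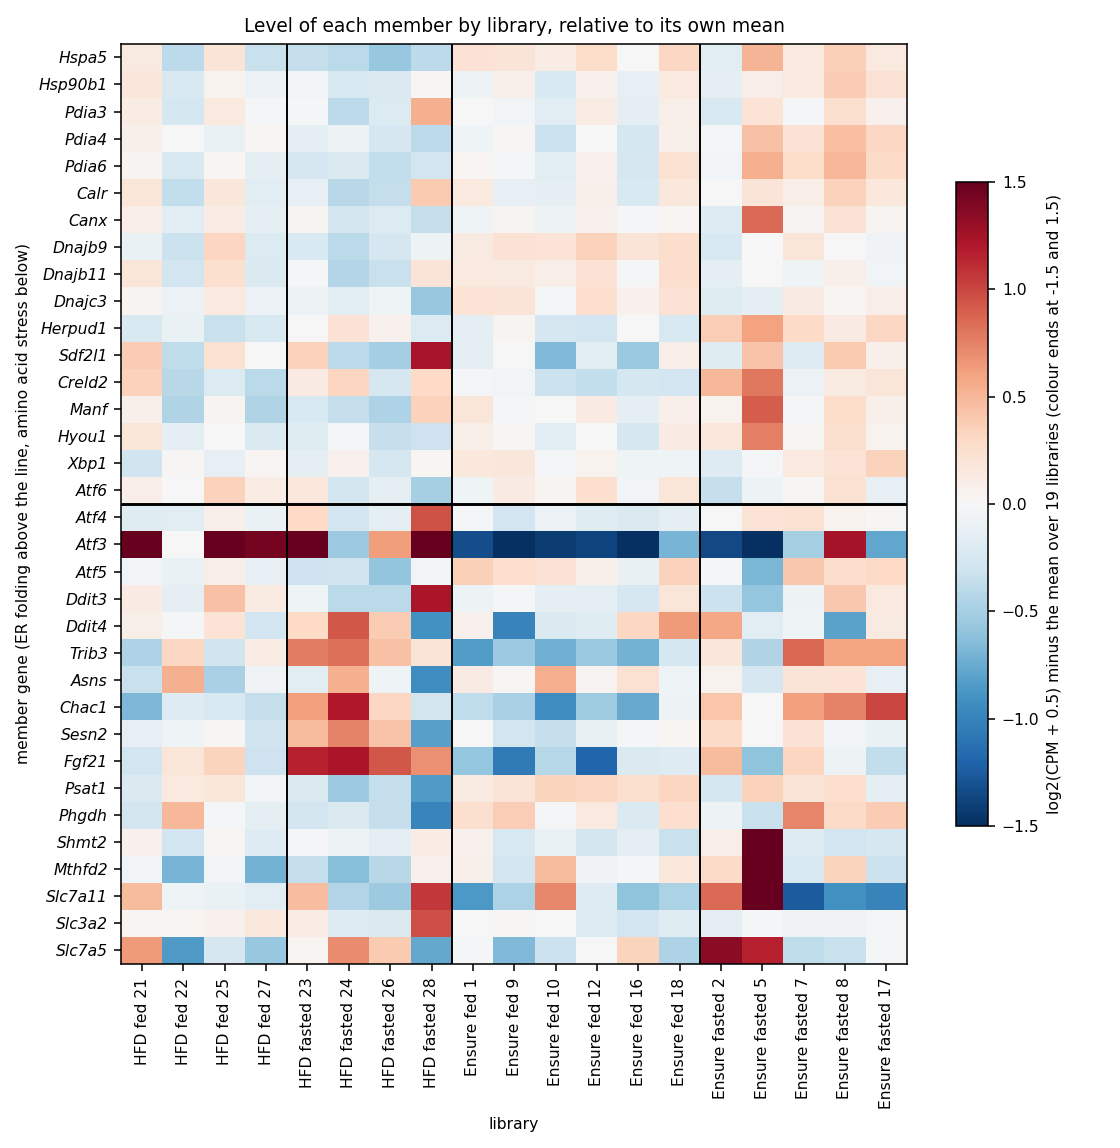
Each row is a member and each column a library, with colour giving log2(CPM + 0.5) minus that member's mean over the 19 libraries; vertical lines part the groups and the horizontal line parts ER folding (above) from amino acid stress. Trib3, Chac1 and Fgf21 are mostly above their means in fasted columns, and Ensure fasted 5 and HFD fasted 28 hold several of the strongest single boxes. Atf3 is above its mean in most HFD columns, but not in HFD fed 22 or HFD fasted 24, and also in Ensure fasted 8.

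After 24 hours without feeding, 6 of the 34 members were higher in Ensure mice and 0 were lower by edgeR's quasi-likelihood test at an adjusted p under 0.05. The 6 were 4 of the 17 ER folding genes (Herpud1, Pdia4, Creld2 and Pdia6) and 2 of the 17 amino acid stress genes (Trib3 and Chac1). Over all genes tested, 20.3% were called in this contrast, 10.6% higher and 9.77% lower. With both directions pooled, 6 of 34 is not above the share of all genes. For higher calls alone, 6 of 34 is above the 10.6% of all genes, and whether by more than chance was not tested. The median log2 fold change was 0.17 for ER folding and 0.25 for amino acid stress, beside 0.11 for all genes, and 13 of 17 in each set were above 0, where 60.5% of all genes were. Groups did not overlap for 3 members, Herpud1, Chac1 and Atf4, all higher after fasting, where 15% of all genes did not overlap (5.68% higher, 9.28% lower). At an unadjusted p under 0.05, 6 members of each set passed, where 36% of all genes did.

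Among the ER folding genes, Herpud1, an ER membrane protein that serves the disposal of misfolded proteins, was at 61.1 (lowest), 65.2 (median) and 77.1 CPM (highest) in Ensure fed libraries and at 96.9, 114, 91.2, 81.2 and 92.7 in Ensure fasted 2, 5, 7, 8 and 17, the order kept for that group below. Every fasted library lay above every fed one. The log2 fold change was 0.49 (SE 0.09, adjusted p = 0.00174). In HFD mice Herpud1 was at 63.9, 69.7, 59.2 and 63.2 CPM in HFD fed 21, 22, 25 and 27 and at 75.1, 86.8, 77.8 and 64.6 in HFD fasted 23, 24, 26 and 28, again the order kept below. Of the 4 fasted libraries, 3 were above all fed ones, and the log2 fold change of 0.25 (SE 0.11) had an adjusted p of 0.30.

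Pdia4, a protein disulfide isomerase that joins and reshuffles disulfide bonds, was at 93.7, 114 and 124 CPM (lowest, median, highest) in Ensure fed and at 115, 159, 136, 160.3 and 145 in Ensure fasted libraries. The groups overlapped through Ensure fasted 2 alone. Its log2 fold change was 0.38 (SE 0.10, adjusted p = 0.0111). The related enzyme Pdia6 was at 192, 229 and 268 CPM in Ensure fed and at 222, 333, 276, 324 and 279.6 in Ensure fasted libraries, and here too only library 2 fell within the fed range. It rose by a log2 fold change of 0.34 (SE 0.10, adjusted p = 0.0294). Creld2, an ER-resident disulfide isomerase induced by ER stress, was at 17.1, 18.2 and 21.7 CPM in Ensure fed and at 31.6, 39.0, 20.9, 24.6 and 25.3 in Ensure fasted libraries, with library 7 inside the fed range. Its log2 fold change was 0.57 (SE 0.17, adjusted p = 0.0262).

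These ER folding calls were not all stable. Of the 11 fits that left out 1 library of the contrast, Creld2 was not called in 6 and Pdia6 in 5, while Herpud1 and Pdia4 were called in each. Creld2 was lost without Ensure fed 10, 12, 16 or 18 or Ensure fasted 2 or 5, and Pdia6 without Ensure fed 9, 10 or 16 or Ensure fasted 5 or 8. Without Ensure fasted 5 the log2 fold changes were 0.38 for Herpud1, 0.29 for Pdia4, 0.38 for Creld2 and 0.23 for Pdia6, and the last 2 were no longer called (adjusted p = 0.122 and 0.113). Fed and fasted Ensure libraries were mostly sequenced in different lanes, with 4 of 6 fed in lane 6 and 4 of 5 fasted in lane 5. Within lane 5 (1 fed, 4 fasted) and lane 6 (4 fed, 1 fasted) the log2 ratios of means were 0.51 and 0.43 for Herpud1, 0.35 and 0.45 for Pdia4, 0.31 and 0.38 for Pdia6, and 0.41 and 0.43 for Creld2. With lane in the fit none of the 4 was called, with adjusted p of 0.0522 for Herpud1, 0.0875 for Pdia4, 0.161 for Pdia6 and 0.349 for Creld2. Over all genes, that fit called 260 higher and 500 lower. Without the 5 libraries rich in epididymis and testis markers, Pdia4 alone of the 4 was called, and the log2 fold changes of Herpud1 and Creld2 were 0.31 (adjusted p = 0.0756) and 0.23 (adjusted p = 0.496). Where 10.6% of all genes were higher, 9 of 10 smooth muscle markers were higher too after fasting in Ensure mice. Their sum was 613 to 820 CPM in fed libraries, 8791 in Ensure fasted 5 and 832, 1064, 697 and 1189 in Ensure fasted 2, 7, 8 and 17, and their part was not tested.

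The central regulators of ER folding gave no call. BiP itself, Hspa5, was at 628, 721 and 775 CPM in Ensure fed and at 562, 889, 693, 803 and 689.6 in Ensure fasted libraries, so the fasted range enclosed the fed one. Its log2 fold change was 0.03, with a 95% interval from -0.21 to 0.28, and -0.10 without Ensure fasted 5. Xbp1 was at 179, 190.2 and 211 CPM in Ensure fed and at 164, 184, 209, 216 and 240.2 in Ensure fasted libraries, overlapping widely, with a log2 fold change of 0.07 (95% interval -0.12 to 0.26); gene counts do not tell its spliced from its unspliced form. The 13 ER folding genes not called had log2 fold changes from -0.25 to 0.35 and adjusted p from 0.0907 to 0.885. At the low end stood 3 co-chaperones that serve BiP, Dnajb9 (-0.25), Dnajb11 (-0.18) and Dnajc3 (-0.16), together with the sensor Atf6 (-0.13). At the high end were Sdf2l1, a partner of Dnajb11, at 0.35, Hyou1, a nucleotide exchange factor for BiP, at 0.29 and Manf, a secreted stress protein, at 0.27. The values of Hyou1, Manf and Sdf2l1 were 0.10, 0.02 and 0.22 without Ensure fasted 5, and that of Canx (calnexin), 0.24 in all libraries, was -0.01. In between were Hsp90b1 (0.17), Calr (0.17) and Pdia3, the isomerase that works with those lectins (0.08).

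Of the amino acid stress genes, Chac1, which breaks down glutathione and is a late ATF4 target, was at 4.26, 5.86 and 8.10 CPM in Ensure fed and at 11.6, 8.65, 13.4, 14.8 and 17.7 in Ensure fasted libraries. No fasted library was as low as any fed one. The log2 fold change was 1.16 (SE 0.24, adjusted p = 0.00309). Trib3, a pseudokinase that restrains AKT and ATF4, was at 5.81, 6.79 and 8.89 CPM in Ensure fed and at 12.2, 7.75, 20.1, 16.5 and 16.6 in Ensure fasted libraries, with Ensure fasted 5 alone inside the fed range. It rose by a log2 fold change of 1.07 (SE 0.21, adjusted p = 0.00249). Unlike the ER folding calls, both were larger without Ensure fasted 5, at log2 1.24 for Chac1 and 1.18 for Trib3, and both stayed called with lane in the fit, at 1.34 (adjusted p = 0.0167) and 1.28 (adjusted p = 0.0168). Within lanes 5 and 6 the log2 ratios were 0.86 and 1.67 for Chac1 and 1.21 and 1.23 for Trib3.

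The other 15 amino acid stress genes were not called, including the best known direct ATF4 target and ATF4 itself. Asns, asparagine synthetase, was at 42.8, 47.5 and 65.6 CPM in Ensure fed and at 46.4, 37.5, 51.3, 51.6 and 41.2 in Ensure fasted libraries. Its groups overlapped throughout, with a log2 fold change of -0.14 (95% interval -0.56 to 0.29). Atf4 mRNA was at 84.3, 92.9 and 101 CPM in Ensure fed and at 103, 119, 121, 107 and 104 in Ensure fasted libraries, so that the groups did not overlap although the log2 fold change of 0.25 (SE 0.16) had an adjusted p of 0.261. Ddit3, which encodes the death-linked factor CHOP, was at 15.8, 17.6 and 21.7 CPM in Ensure fed and at 15.1, 12.5, 17.9, 25.2 and 21.1 in Ensure fasted libraries, spread on both sides of the fed range, with a log2 fold change of 0.02 (95% interval -0.48 to 0.53). Fgf21 was at 0.0988, 0.462 and 0.696 CPM in Ensure fed and at 1.40, 0.400, 1.20, 0.791 and 0.558 in Ensure fasted libraries, 3 of which were above all fed ones. Its log2 fold change of 1.02 (SE 0.45) had an adjusted p of 0.113, and at 2 to 20 reads a library counting error is large.

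Among the remaining amino acid stress genes in Ensure mice, those with the highest log2 fold changes were Slc7a11 (1.99), Atf3 (1.13), Shmt2 (0.90), Mthfd2 (0.87) and Slc7a5 (0.72), and none was called. Those of Slc7a11, Shmt2 and Mthfd2 rested on Ensure fasted 5, as described below. That of Atf3 rested on Ensure fasted 8 and was 0.25 without it, and that of Slc7a5 was 0.39 without Ensure fasted 2 and 0.48 without Ensure fasted 5. Atf3 is a stress-induced repressor and Slc7a5 the light chain of the carrier of large neutral amino acids. Its heavy chain, Slc3a2, was at 0.05, and the stress genes Sesn2 and Ddit4, which hold back mTORC1, were at 0.20 and -0.01. Phgdh and Psat1, successive enzymes of serine synthesis, were at 0.10 and -0.16 (0.17 and -0.28 without Ensure fasted 5), and Atf5, an ATF4-related factor, at -0.10.

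**Figure D3:**
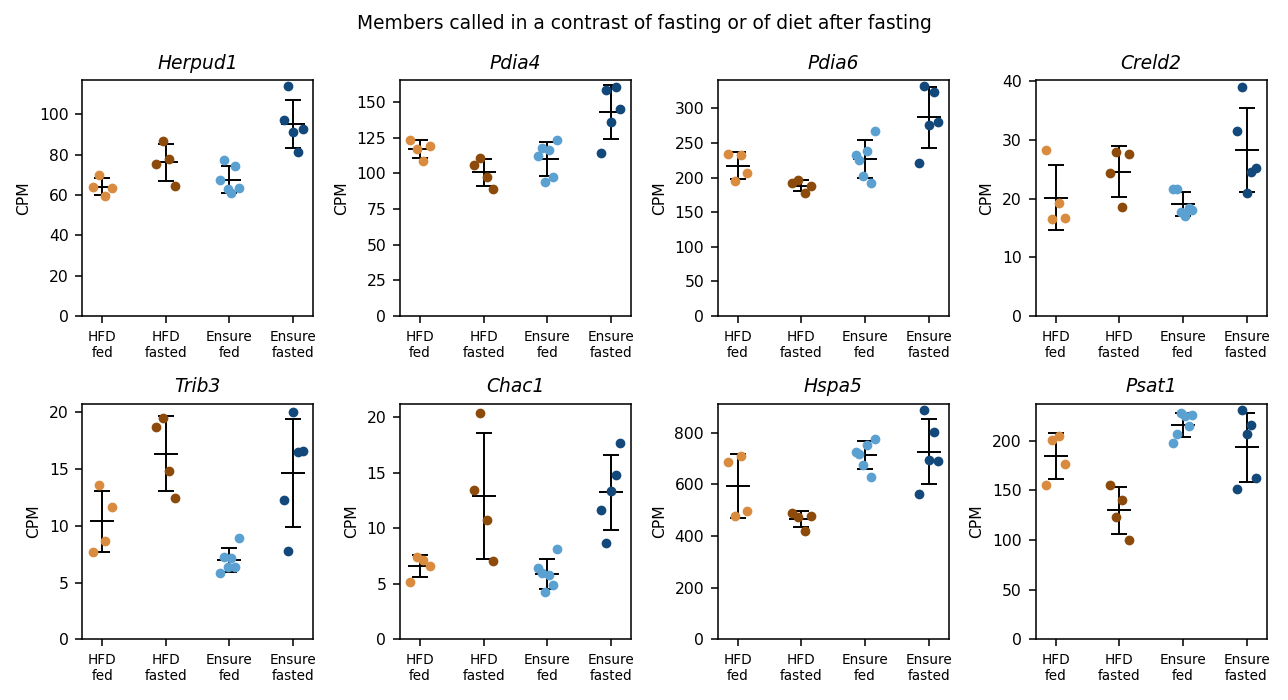
Level in CPM of 8 members, with a point for each library, a long bar for the group mean and short bars 1 SD above and below (n = 4, 4, 6 and 5). Herpud1 and Chac1 do not overlap between Ensure fed and Ensure fasted, and Hspa5, Pdia4 and Pdia6 do not overlap between HFD fasted and Ensure fasted.

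In HFD mice, fasting gave 0 calls among the 34 members by edgeR, where 1.22% of all genes tested were called, 0.187% higher and 1.03% lower. At an unadjusted p under 0.05, 3 ER folding and 5 amino acid stress genes passed, where 14.8% of all genes did. DESeq2 called 2 members, Chac1 higher and Psat1 lower, where it called 162 of all genes higher and 472 lower. The median log2 fold change was -0.13 for ER folding and 0.26 for amino acid stress, beside 0.06 for all genes. Only 6 of 17 ER folding genes were above 0, against 13 of 17 amino acid stress genes and 58% of all genes. Groups did not overlap for 2 members, Fgf21 (higher) and Psat1 (lower), where 8.45% of all genes did not overlap (2.24% higher, 6.21% lower).

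Fgf21 was at 0.622, 1.05, 1.22 and 0.604 CPM in HFD fed and at 2.54, 2.69, 2.09 and 1.70 in HFD fasted libraries. Every fasted library was above every fed one. The log2 fold change was 1.36 (SE 0.52), with an adjusted p of 0.225. Psat1 was at 156, 201, 205 and 176 CPM in HFD fed and at 155, 123, 141 and 99.9 in HFD fasted libraries, just clear of each other, with a log2 fold change of -0.51 (SE 0.14, adjusted p = 0.102). For Chac1 the levels were 5.18, 7.41, 7.16 and 6.60 CPM in HFD fed and 13.4, 20.4, 10.7 and 7.01 in HFD fasted libraries, and HFD fasted 28 was the library that lay among the fed ones. Its log2 fold change was 0.97 (SE 0.28, adjusted p = 0.111). Trib3 was at 7.71, 13.6, 8.68 and 11.7 CPM in HFD fed and at 18.7, 19.5, 14.9 and 12.4 in HFD fasted libraries, again with only HFD fasted 28 inside the fed range, at a log2 fold change of 0.65 (SE 0.25, adjusted p = 0.225).

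HFD fasted 28, the library with the highest macrophage marker sum, was the lowest of all 19 for 8 members and the highest for 7. It was the lowest for 17.3% and the highest for 24.5% of all genes tested. Without HFD fasted 28, 2 members were called after fasting in HFD mice, Chac1 and Sesn2, both higher. Over all genes, that fit called 19 higher and 44 lower. Sesn2 was at 46.0, 47.8, 50.6 and 40.5 CPM in HFD fed and at 69.8, 84.2, 67.1 and 28.2 in HFD fasted libraries, so that library 28 was below every fed library and the other 3 above. In the full data its log2 fold change was 0.43 (SE 0.22, adjusted p = 0.366).

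Of the main regulators and markers of both arms, none was called in HFD mice. Hspa5 was at 687, 477, 712 and 498 CPM in HFD fed and at 489.8, 473, 419.8 and 477 in HFD fasted libraries. Of the fed libraries, 21, 25 and, by little, 27 were above all fasted ones and 22 lay among them, with a log2 fold change of -0.35 (SE 0.15, adjusted p = 0.267). Xbp1 was at 153, 190.2, 173 and 192 CPM in HFD fed and at 171, 197, 158 and 192 in HFD fasted libraries, overlapping fully (log2 fold change 0.02, 95% interval -0.20 to 0.24). Asns was at 35.4, 65.2, 31.7 and 43.1 CPM in HFD fed and at 39.9, 65.1, 43.0 and 23.2 in HFD fasted libraries, with a spread wider than in Ensure mice and a log2 fold change of -0.03 (95% interval -0.53 to 0.46). Atf4 was at 91.2, 92.4, 109 and 96.7 CPM in HFD fed and at 127, 84.6, 93.7 and 201 in HFD fasted libraries, the last of which was library 28. Ddit3 followed the same library, at 20.7, 17.1, 25.9 and 20.8 CPM in HFD fed and 18.2, 14.3, 14.3 and 44.9 in HFD fasted libraries. Neither was called, with log2 fold changes of 0.38 for Atf4 (adjusted p = 0.352) and 0.12 for Ddit3 (adjusted p = 0.862), which were 0.09 and -0.42 without library 28.

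**Figure D4:**
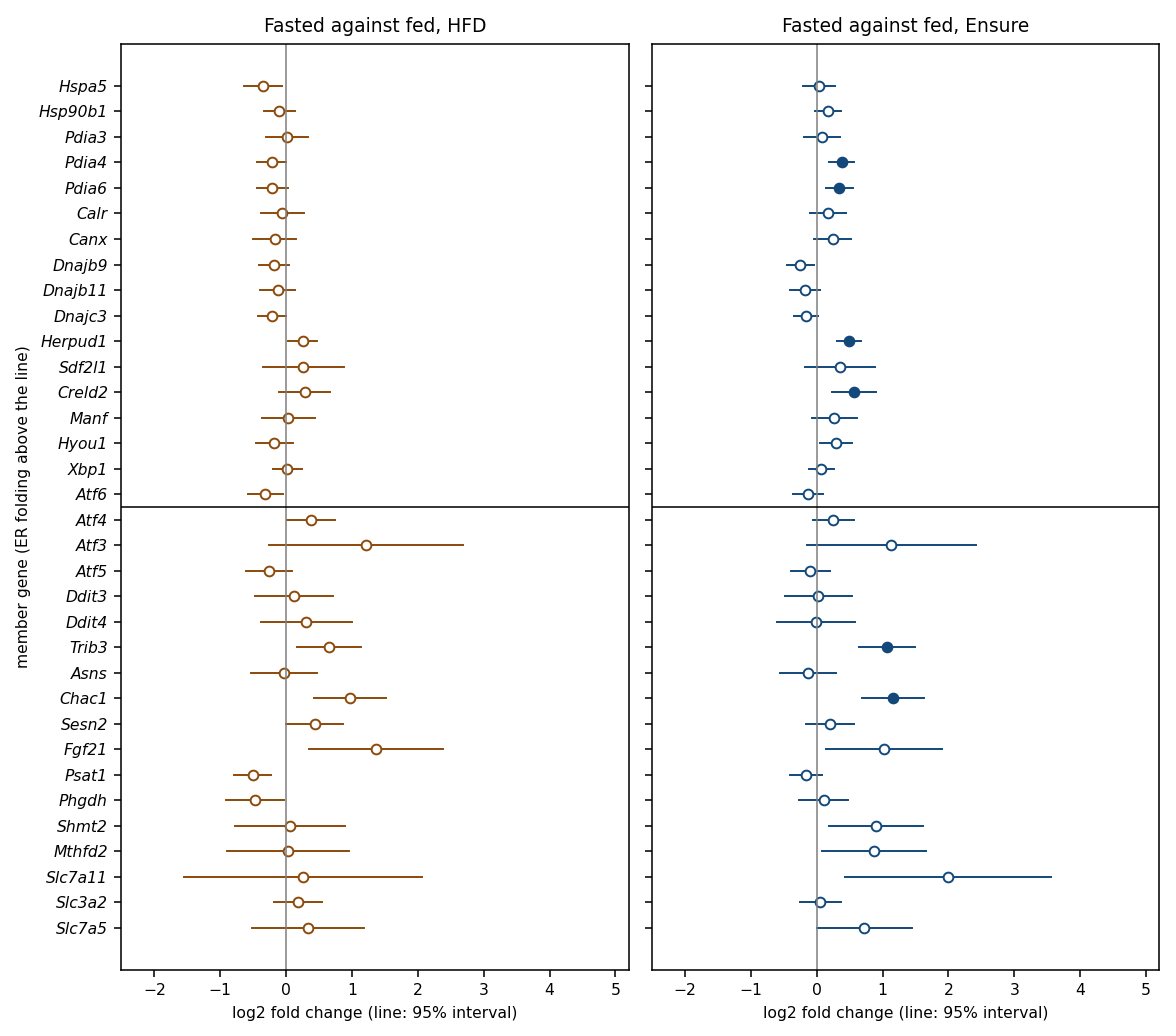
Log2 fold change of fasted against fed for each member, with HFD on the left and Ensure on the right; lines are 95% intervals and filled points have an adjusted p under 0.05. No HFD point is filled, and 6 Ensure points are, all above 0.

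Whether the fasting responses differ between the diets was tested directly, and edgeR called 0 of the 34 members, as it called 0% of all genes. At an unadjusted p under 0.05, 3 ER folding genes and 0 amino acid stress genes passed, where 7.71% of all genes did, and DESeq2 called 1 member, Pdia4. The 3 were Pdia4, Pdia6 and Hyou1, with differences (Ensure minus HFD) of 0.60 (95% interval 0.31 to 0.88, adjusted p = 0.351), 0.55 (0.23 to 0.86, adjusted p = 0.476) and 0.47 (0.10 to 0.85, adjusted p = 0.577) on the log2 scale. Without Ensure fasted 5 they were 0.48 for Pdia4, 0.42 for Pdia6 and 0.25 for Hyou1. Pdia4 had a log2 fold change of -0.22 with HFD and 0.38 with Ensure, and Pdia6 of -0.21 and 0.34. Differences were above 0 for 15 of the 17 ER folding genes and 9 of the 17 amino acid stress genes, where 54.5% of all genes were, with medians of 0.24 and 0.16 beside 0.04. For Chac1 and Trib3 the differences were 0.19 (95% interval -0.53 to 0.91) and 0.41 (-0.23 to 1.05), or -0.08 and 0.23 without HFD fasted 28.

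Among fed libraries, 1 of the 34 members differed between the diets, where 4.26% of all genes were called (2.09% higher, 2.17% lower): Atf3 was lower with Ensure. It was at 80.7, 25.7, 84.8 and 71.1 CPM in HFD fed and at 8.11, 9.48 and 15.8 (lowest, median, highest) in Ensure fed libraries. The groups did not overlap, with HFD fed 22 the nearest. The log2 fold change was -2.69 (SE 0.69, adjusted p = 0.0367). This call was lost in 8 of the 10 fits that left out 1 library of the contrast, with log2 fold changes from -2.95 to -2.52 and adjusted p up to 0.096, and it was lost with lane in the fit (-2.06). Over all genes, the fit with lane called 2 higher and 0 lower. All HFD libraries were in lane 7, where the only Ensure library was Ensure fed 18, at 15.8 CPM, also below every HFD fed library.

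Of 14 macrophage markers, 5 were also lower in Ensure fed than in HFD fed libraries, where 2.17% of all genes were lower. The log2 fold changes of 4 of the 14 were above 0. Among those called were Gpnmb (-4.29), Itgax (-2.56), Atp6v0d2 (-3.77) and Mmp12 (-3.82), genes of lipid-laden macrophages and their matrix enzyme. The sum of the 13 markers not on the adipocyte marker list ran from 2721 to 5537 CPM in HFD fed and from 1914 to 2746 in Ensure fed libraries. Cd74 was the largest term of the Ensure fed sums, at 1447 of 2746 CPM in Ensure fed 1. In HFD fasted 23, 24, 26 and 28 the sums were 9008, 2079, 3431 and 19809 CPM while Atf3 was at 155, 17.6, 40.2 and 395. In Ensure fasted 2, 5, 7, 8 and 17 the sums were 2334, 1277, 2962, 5040 and 2916 CPM while Atf3 was at 9.87, 6.80, 18.1, 62.3 and 14.9. In both fasted groups the libraries stood in the same order by either measure. In the fed groups, between which Atf3 was called, the orders differed in part. Among Ensure fed libraries Atf3 was highest in library 18, with a sum of 2414 CPM, while library 1, with the highest sum (2746), had Atf3 at 10.04 and library 9, with a sum of 2703, had the lowest Atf3. Single markers of that sum differed: Itgax (32.6 CPM), Atp6v0d2 (18.1) and Mmp12 (75.6) were highest of the Ensure fed libraries in library 18. Gpnmb was highest in library 10, at 91.3 CPM against 64.9 in library 18. In HFD fed 22, 27, 25 and 21 Atf3 was at 25.7, 71.1, 84.8 and 80.7 CPM and the sums were 2721, 4714, 5510 and 5537. The part of macrophages in the Atf3 difference was not tested.

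No other member was called between fed groups. Log2 fold changes of the 17 ER folding genes lay between -0.31 (Sdf2l1) and 0.28 (Dnajb9), with a median of 0.02 beside -0.04 for all genes, of which 44.3% were above 0. Those of the other amino acid stress genes ran from -1.03 (Fgf21) to 0.43 (Mthfd2). Slc3a2 did not overlap between the groups, at 169, 169, 174 and 185 CPM in HFD fed and at most 167 in Ensure fed libraries, a log2 fold change of -0.18 (SE 0.17, adjusted p = 0.671); 13.3% of all genes did not overlap in this contrast, 5.89% higher and 7.37% lower. Trib3 lay lower with Ensure in the fed state (log2 fold change -0.57, adjusted p = 0.17).

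After fasting, 4 of the 34 members were higher with Ensure than with HFD and 0 lower, where 2.82% of all genes were called, 1.63% higher and 1.19% lower. With library size in place of TMM the split over all genes turned from 261 higher and 191 lower to 215 and 308. The 4 were the ER folding genes Pdia6, Pdia4 and Hspa5 and the serine enzyme Psat1. Their levels by library are given above for the fasting contrasts. Pdia6 was at 192, 196, 177 and 187 CPM in HFD fasted libraries, all below the lowest Ensure fasted one, with a log2 fold change of 0.61 (SE 0.12, adjusted p = 0.0117). Pdia4 was at 106, 111, 97.8 and 88.7 CPM in HFD fasted libraries and at 115 or more in all Ensure fasted ones, with a log2 fold change of 0.50 (SE 0.11, adjusted p = 0.0193). Hspa5 did not overlap either (log2 fold change 0.65, SE 0.14, adjusted p = 0.0217). Psat1 was at 151, 231, 207, 216 and 163 CPM in Ensure fasted libraries, of which library 2 lay within the HFD range, and its log2 fold change was 0.58 (SE 0.14, adjusted p = 0.0324).

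For 16 of 17 ER folding genes the fasted level was higher with Ensure, where 52.3% of all genes were, at a median log2 fold change of 0.25 beside 0.02, and the exception was Sdf2l1. Groups did not overlap for 4 of them, the 3 called and Hyou1, and for Fgf21, which lay lower with Ensure; 3.99% of all genes did not overlap (2.51% higher, 1.48% lower). This contrast uses the same fasted libraries as the fasting contrasts above, so the values are not separate support for them. Each of the 4 log2 fold changes stayed between 0.40 and 0.66 without Ensure fasted 5, without HFD fasted 28, without both and without the 5 libraries rich in epididymis and testis markers. Only Pdia6 was called in all 9 fits that left out 1 library. Without HFD fasted 28, Pdia4, Hspa5 and Psat1 had adjusted p of 0.0603, 0.0591 and 0.105. With the 2 fasted groups fitted alone none of the 4 was called (adjusted p of 0.19 to 0.361), with log2 fold changes of 0.49 to 0.64. No Ensure fasted library was in lane 7, where all HFD fasted libraries were, so lane and diet cannot be told apart here. With lane as a term none of the 4 was called, and neither was any other gene. Atf3 was again far lower with Ensure, at a log2 fold change of -2.77 (SE 0.73), but its adjusted p of 0.0517 missed the threshold, and without HFD fasted 28 the log2 fold change was -1.68 (adjusted p = 0.23).

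Several members were marked by single libraries more than by any group. Shmt2 and Mthfd2, the mitochondrial enzymes that turn serine into one-carbon units, were at 129 and 83.1 CPM in Ensure fasted 5. In the other 4 Ensure fasted libraries Shmt2 was between 22.5 and 29.5 and Mthfd2 between 11.9 and 19.1, within or near the range of the other groups. The cystine carrier Slc7a11 was at 34.4 CPM there, against 4.97, 0.783, 1.12 and 1.01 in libraries 2, 7, 8 and 17. Without Ensure fasted 5, log2 fold changes of fasting in Ensure mice fell from 0.90 to -0.03 for Shmt2, from 0.87 to -0.08 for Mthfd2 and from 1.99 to -0.15 for Slc7a11. That library also held the highest Canx, Manf and Hyou1, at 629, 92.4 and 164 CPM. It is the library with the high epididymis, testis and smooth muscle marker sums given above, and the part of that tissue was not tested.

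HFD fasted 28 had the highest Atf3 (395 CPM), Atf4 (201), Ddit3 (44.9), Slc3a2 (324), Calr (739) and Sdf2l1 (42.6) of the 19 libraries. It also had the lowest Sesn2, Asns and Phgdh, at 28.2, 23.2 and 61.1 CPM. Within 1 library, then, Atf3, Atf4 and Ddit3 were high and enzymes of asparagine and serine synthesis low. Other stress-induced members were low there too. Chac1 (7.01 CPM), Trib3 (12.4) and Ddit4 (32.4) were at their lowest of the HFD fasted libraries. The macrophage marker sum of HFD fasted 28 was the highest of the 19, and the part of those cells was not tested.

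**Figure D5:**
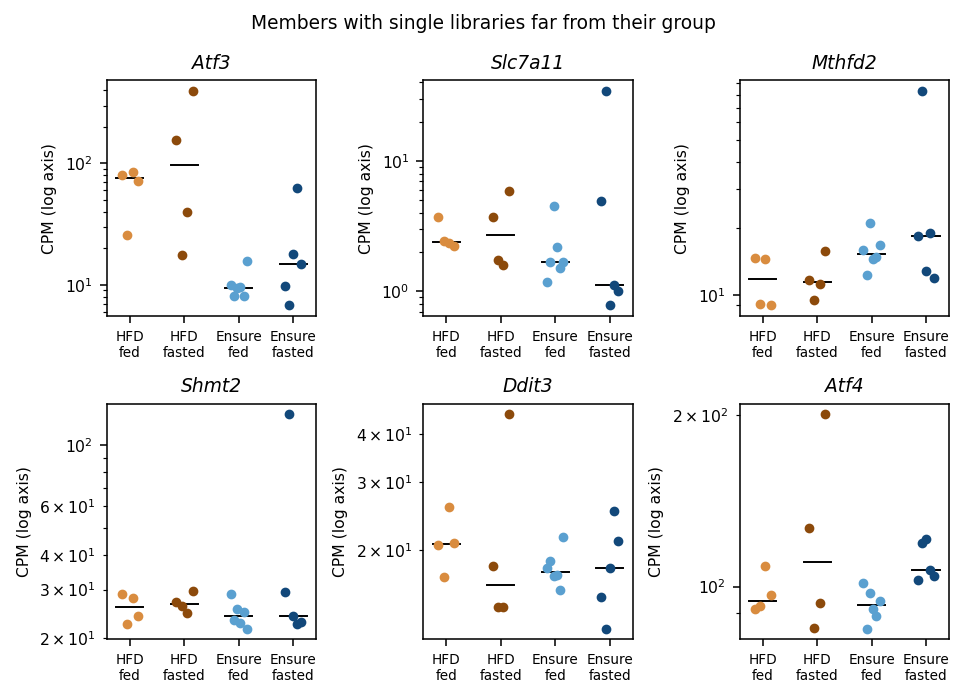
Level in CPM on a log axis for 6 members, with a point for each library and a bar for the group median. The single high points are Ensure fasted 5 for Slc7a11, Mthfd2 and Shmt2 and HFD fasted 28 for Atf3, Ddit3 and Atf4.

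Other genes of the same pathways were read from lists, and after fasting in Ensure mice most of their calls were lower, against the direction of the members. Of 20 cytosolic aminoacyl-tRNA synthetases, which charge tRNAs and include known ATF4 targets, 0 were higher and 10 lower, beside 10.6% and 9.77% of all genes. Their median log2 fold change was -0.38. Examples are Gars, from 107 ± 4.6 CPM (SD, n = 6) to 69.6 ± 8.6 (n = 5), a log2 fold change of -0.62 (adjusted p = 1.1e-04), and Aars, from 147 ± 13.6 to 94.6 ± 5.2, or -0.64 (adjusted p = 3.94e-04). With lane in the fit 7 were lower, without Ensure fasted 5 it was 14 and without the 5 libraries rich in epididymis and testis markers 7. Over all genes, those fits called 500, 1902 and 642 lower. In HFD mice the median of the synthetases was -0.16, with 0 called, where 1.22% of all genes were.

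Lists of ER export, disposal and folding are to be read against the 10.6% of all genes that were higher and 9.77% that were lower in Ensure mice. Of 17 genes of COPII coats and ER retrieval, 0 were higher and 5 lower, among them the coat subunits Sec13 (-0.65) and Sec23a (-0.58). With lane in the fit 2 were lower, where 500 of all genes were. Of 18 genes of ER-associated degradation, 2 were higher and 6 lower, with Ufd1l and Nploc4, the partners of the p97 ATPase, at -0.55 and -0.42 and the lectin Os9 at 0.28. Of 23 genes of the translocon and N-glycosylation, 0 were higher and 3 lower, the translocon-associated subunits Ssr1, Ssr2 and Ssr3. Of 20 other folding and redox enzymes, 1 was higher, Ero1lb (0.59), an oxidase that recharges disulfide isomerases, and 3 were lower, Txndc11 (-0.55), Txndc12 (-0.37) and Calu (-0.51). Of 12 mitochondrial chaperones and proteases, 0 were higher and 5 lower, including Hspa9 (-0.66) and Hspd1 (-0.66). None of these 5 lists had a call after fasting in HFD mice, where 1.22% of all genes were called.

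The lists closest to eIF2 and ATF4 were mixed. They are to be read against the same shares of all genes in Ensure mice, 10.6% higher and 9.77% lower. Of 15 stress sensors and eIF2 regulators, Ppp1r15a (GADD34), which directs the phosphatase to eIF2, was higher after fasting in Ensure mice, from 14.8 ± 0.9 CPM to 24.1 ± 1.6 (log2 fold change 0.70, adjusted p = 0.00522). Eif2s1, the eIF2 subunit that is phosphorylated, was lower (-0.70, adjusted p = 0.00122). Of 19 other ATF4-responsive genes, Pck2 (0.90) and Gdf15 (1.87), a stress hormone, were higher and Gpt2 (-0.70) and Vldlr (-0.71) lower. Of 16 further serine, glycine and folate enzymes, 4 were higher and 5 lower; cytosolic Shmt1 was at 0.64, while Mthfd1 (-0.79), Dld (-0.65) and Gcsh (-0.53) were lower. Of 14 other amino acid carriers, Slc7a6 (-0.29) was lower. In HFD mice the genes of these lists called lower were Gpt2 (-0.94), Gcsh (-0.52) and Mthfd1 (-0.53), where 1.03% of all genes were lower.

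Between the diets, 4 of 17 COPII and retrieval genes were higher in Ensure fed than in HFD fed libraries and 0 lower, namely Surf4 (0.35), Sec23a (0.50), Kdelr3 (0.75) and Sec13 (0.38), where 2.09% of all genes were higher. After fasting Surf4 (0.35) and Sec31a (0.34) were higher, where 1.63% of all genes were. The translocon subunit Ssr2 was higher with Ensure in both states, at 0.51 and 0.47. With lane in the fit, or without the 5 libraries rich in epididymis and testis markers, none of these 17 genes was called between fed groups. Over all genes, those fits called 2 and 292 higher and 0 and 236 lower.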

How the data were processed

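RNA of whole perigonadal adipose tissue was sequenced as poly-A libraries on a HiSeq2000, per the labels' protocols. The authors deposited whole-number read counts per gene for each library; bcl2fastq 1.8.4, TopHat2 2.1, HTSeq 0.6.1 and the mm9 build are named in the submitters' processing notes, and the strand setting is not given in the sources used here, so reads of overlapping antisense genes cannot be told apart. Lines that name no gene were left out of library sizes: of all lines of the files summed, no-feature lines held 13.0 to 17.3%, ambiguous ones 0.695 to 0.893% and non-unique alignments 20.7 to 27.7%. Groups were taken from the sample titles. Totals were 12.8 to 22.6 M counts (median 20.2), at which 3 counts are worth 0.124 to 0.210 CPM. In R 4.3.3, edgeR 4.0.16 with its default filter (minimum count 10) and TMM scaling was fitted once to all 19 libraries, with the quasi-likelihood F test, Benjamini-Hochberg adjustment over 16015 genes and a threshold of 0.05. The SE is the log2 fold change divided by the root of F. Groups "do not overlap" where all libraries of one lie above all of the other. Libraries of a group differed by more than sampling noise in all 37 pairs (chi-square per gene 6.46 to 287). DESeq2 1.42.0 and limma 3.58.1 served as alternatives. The steps were tested on simulated data. The members and the lists were chosen with earlier results of these data known. Values in every library are given for the members called in a contrast, for Hspa5, Xbp1, Ddit3, Atf4, Asns and Fgf21 whatever their p, and for others chosen after their values were seen (such as Sesn2, Slc3a2, Psat1 in HFD mice and those with a far library). Of each other list, up to 4 called genes per contrast are named, by smallest p, at a mean of at least 1 CPM. The result of 1 list gene is not reported here.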

Additional observations from a re-analysis of the deposited data

Results flagged for a closer look

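In 10 of 136 sets of values, each a member in 1 group, the highest library stood far from the rest by Dixon's test, where chance gives about 6.8 (1 in 20). Of these, 5 were in Ensure fasted 5: Manf at 92.4 CPM, Hyou1 at 164, Shmt2 at 129, Mthfd2 at 83.1 and Slc7a11 at 34.4. Ddit3 stood apart in HFD fasted 28, at 44.9 CPM. Atf3 did so in Ensure fasted 8, at 62.3 CPM, and in Ensure fed 18, at 15.8 CPM. Slc7a11 did so in HFD fed 21, at 3.73 CPM, and in Ensure fed 10, at 4.52 CPM.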

How the results depend on the processing

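No paired analysis was possible because each replicate number belongs to 1 library only. The number of members called moved with the method more than with scaling or filters, and no called member changed sign under any alternative run, though uncalled ones did, such as Shmt2, Mthfd2 and Slc7a11 without Ensure fasted 5. Calls over all genes moved too, and the member counts are to be read against them. For fasting in HFD mice the member count went from 0 to 2 with DESeq2, 10 with limma voom and quality weights, 2 without the 8 libraries rich in tract markers, 2 without HFD fasted 28 and Ensure fasted 5 (added after seeing the data), and 0 to 2 leaving out 1 library. Over all genes the main fit called 30 higher and 165 lower, DESeq2 162 and 472, and voom 1172 and 1802. Without the 8 libraries it was 545 and 365, and without both far libraries 70 and 333. For fasting in Ensure mice it went from 6 to 8 with DESeq2 (Dnajb9 and Slc7a11 gained), 11 with voom, 9 with the groups alone, 4 without both far libraries, 2 with lane as a term, 3 and 2 without the 5 and 8 libraries rich in tract markers, and 4 to 8 leaving out 1 library (4 without Ensure fed 10). Over all genes the main fit called 1690 higher and 1565 lower, DESeq2 2483 and 2024, and voom 2996 and 2642. With the groups alone it was 1668 and 1934, and without both far libraries 1884 and 2214. With lane it was 260 and 500, and without the 5 and 8 libraries 503 and 642, and 312 and 460. For the difference it went from 0 to 1 with DESeq2 and 3 with voom, and stayed 0 leaving out 1 library. Over all genes DESeq2 called 33 higher and 37 lower here, and voom 876 and 294. Between fed groups it went from 1 to 2 with DESeq2, 11 with voom, 0 with lane, 2 with the groups alone, 0 without the 8 libraries, 2 without both far libraries, and 0 to 1 leaving out 1. Over all genes the main fit called 335 higher and 347 lower, DESeq2 902 and 638, voom 2420 and 3021, and lane 2 and 0. With the groups alone it was 1443 and 1490, without the 8 libraries 115 and 98, and without both far libraries 1218 and 1115. Between fasted groups it went from 4 to 8 with DESeq2, 15 with voom, 0 with lane, 0 with the groups alone, and 2 to 6 leaving out 1 (2 without HFD fasted 28). Over all genes the main fit called 261 higher and 191 lower, DESeq2 773 and 570, and voom 2073 and 1345. With lane it was 0 and 0, and with the groups alone 0 and 1. The cause was not tested. Levels of Fgf21 and Slc7a11 are limited by depth.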
